A study of Mus musculus with 4 samples.

Results

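The genes described here are the glucocorticoid receptor Nr3c1 and 6 genes that act with it or respond to it, Fkbp5, Tsc22d3, Sgk1, Hsd11b1, Errfi1 and Lcn2. They were chosen by name: every gene spot of the arrays whose gene name in the scanner files was one of these 7 was taken. This gave 7 of the 31829 gene names on the array, 8 of its 39429 probes and 17 of its 43020 gene spots. All 8 probes were well above background in all 8 channels and were among the 19721 probes kept for testing. RNA was taken from whole livers of C57BL/6J males that were between 8 and 12 weeks old. In the fasted group food had been withdrawn for 24 h, and in the re-fed group the same 24 h without food was followed by 2 h with food, so both groups had been fasted. Each of 4 two-colour arrays held 1 fasted and 1 re-fed liver, paired at random, so each group had 4 livers. The fasted liver carried the dye Cy5 on replicates 1 and 2 and Cy3 on replicates 3 and 4. Every ratio below is the log2 of fasted over re-fed liver after this orientation was turned, so that a positive ratio is a higher signal in fasted liver.

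Glucocorticoids are steroid hormones of the adrenal cortex whose blood level rises in fasting. In the resting cell their receptor waits in the cytoplasm, folded and held ready by the heat shock protein HSP90 and its helpers. Once it has bound hormone it moves to the nucleus, where it binds DNA at palindromic elements and switches genes on, or holds inflammatory genes down through other factors. In liver it acts with glucagon and cAMP signalling to raise the enzymes of glucose synthesis and of amino acid breakdown.

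Of the 7 genes, Errfi1 and Sgk1 rose in fasted liver, to 2.27-fold and 1.87-fold of the re-fed level. Fkbp5 was 1.44-fold higher and passed the limit on p but not that on size. Tsc22d3 and Lcn2 had ratios of opposite sign on arrays of opposite dye orientation. The receptor itself and Hsd11b1, which makes its ligand inside the cell, lay close to a ratio of 0. A probe was called when its adjusted p in limma, over all 19721 kept probes, was under 0.10 and its mean ratio was at least 1.5-fold. By this rule 2 of the 8 probes were called higher and 0 lower. Over all kept probes 1.7% were called higher and 2.08% lower. Without a fold limit 3 of the 8 were past the p limit, all of them higher in fasted liver. Under 18 alternatives, other processing or an array left out, Errfi1 was called in 17 and Sgk1 in 13.

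**Figure D1:**
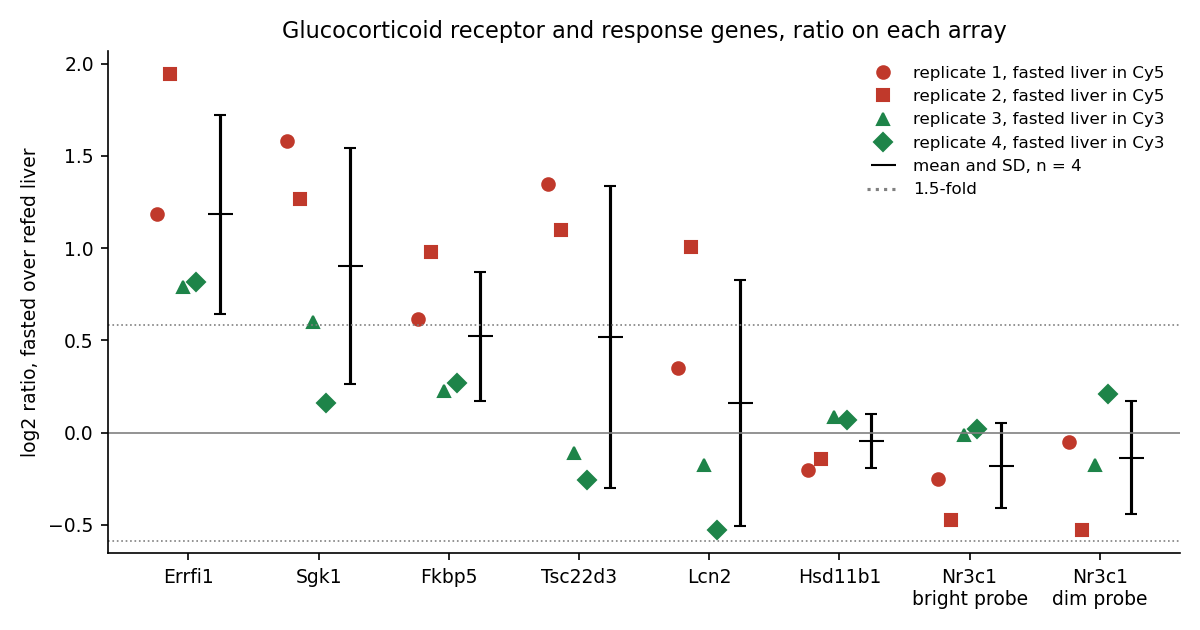
Ratio of each probe on each array (log2, fasted over re-fed liver; red, fasted liver in Cy5; green, fasted liver in Cy3), with the mean and SD of the 4 arrays in black and dotted lines at 1.5-fold. The 4 values of Errfi1 and of Sgk1 all lie above 0, and for Tsc22d3 and Lcn2 the red points lie above 0 and the green points below it.

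Some facts of the arrays bear on all values. Median raw signals of the gene spots were 40 to 75 in the red and 44 to 96 in the green channel, over median local backgrounds of 25 to 35 and 20 to 33, and no spot was saturated. Hepatocyte markers (9 of 9 kept, among them Alb, Ttr and Apoa1) had summed intensities of 629475 to 815906 in fasted and 552363 to 753299 in re-fed livers. Markers of pancreatic acinar cells stood apart on replicate 3, where the median ratio of their 3 kept genes was -3.79, against -0.05 to 0.04 on the other arrays. The summed intensity of these genes reached 17158 in the re-fed livers and 993 in the fasted ones. The part of this tissue in the results was not tested, and the calls that were lost without replicate 3 are named with each list. Since RNA came from whole liver, fewer cells of a type and less RNA per cell cannot be told apart.

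Nr3c1 was measured by 2 probes on chromosome 18, a bright one and a dim one. The bright probe had intensities of 1737, 1742, 2183 and 2319.8 in the fasted livers of replicates 1 to 4 and of 2066, 2421, 2202 and 2291 in the re-fed livers. The fasted livers of replicates 1 and 2 lay below every re-fed liver, and those of replicates 3 and 4 lay within the re-fed range, so the groups overlapped. The ratios were -0.25, -0.47, -0.01 and 0.02, with a mean of -0.18 ± 0.23 (SD, n = 4), a fold of 0.883 with 95% confidence limits of 0.742 and 1.05, and an adjusted p of 0.386 in limma. These limits leave out a change of 1.5-fold in either direction.

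The dim probe had intensities of 173, 147, 189 and 238 in fasted and of 179, 213, 213 and 206 in re-fed livers, so the groups overlapped here too. Its ratios were -0.05, -0.53, -0.18 and 0.21, with a mean of -0.14 ± 0.31 (SD, n = 4; adjusted p = 0.605 in limma). The bright probe's ratio less the dim probe's was -0.20, 0.05, 0.16 and -0.19 on the 4 arrays. The probes thus differed by 0.20 at most, and both were lowest on replicate 2.

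Of 17 chaperones and partners of the HSP70 and HSP90 cycle through which the receptor passes, all kept, 0 were called higher and 9 lower, while the other 8 did not pass. Among all 14272 kept genes, each by its brightest probe, 1.93% were called higher and 2.19% lower. The mean ratio lay below 0 for all 17, and the list's median was -0.83, against 0.0068 over all kept genes. Hsp90aa1, the inducible HSP90 itself, fell 4.23-fold, with ratios of -1.24, -1.90, -2.47 and -2.70 (adjusted p = 0.0109 in limma). Its constitutive partner Hsp90ab1 fell by 0.99 ± 0.44 (SD, n = 4; adjusted p = 0.0275). Among the HSP70 chaperones that load the receptor onto HSP90, Hspa1a fell by 1.84 and Hspa8 by 1.13, and their J-domain helpers Dnaja1 and Dnajb1 fell by 1.72 and 1.39. Stip1, the bridge between HSP70 and HSP90, fell by 1.31 ± 0.06 (SD, n = 4), the smallest spread of the called chaperones, and Ahsa1, which speeds the ATPase of HSP90, fell by 0.83. The last step of the cycle is carried by the p23 protein of Ptges3, named here after its value was seen, whose ratio was -0.40 ± 0.21 (SD, n = 4) and missed the fold limit.

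The list's median was negative on each array, at -0.46, -0.64, -1.01 and -0.95. Without replicate 3 it was -0.80, and 6 of the genes were then called lower, with Hsp90ab1, Hspa8 and Fkbp4 lost. Hspa8 was also lost without replicate 2 or 4. With the background fitted on all spots 0 of the genes were called lower and the median was -0.41, with Fkbp4 at -0.41 and Hspa1a at -0.76. The brightest probe of Hspa4 was not called at -0.18, while a dimmer one was called lower at -0.72, so the probes of that gene disagreed.

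Fkbp5 and Fkbp4 encode FKBP51 and FKBP52, immunophilins that compete for a place in the receptor complex. FKBP51 lowers the affinity for hormone and is itself induced by glucocorticoids, which closes a feedback loop, while FKBP52 helps the receptor on its way to the nucleus. Fkbp5 was probed on chromosome 17 at 28536060 to 28536119 (mm9, minus strand). Its intensities were 2875, 3710.2, 2365 and 1881 in fasted and 1876, 1885, 2021 and 1562 in re-fed livers. The fasted liver was the brighter one on all 4 arrays, but the groups overlapped, because the fasted liver of replicate 4 lay among the re-fed ones. The ratios were 0.62, 0.98, 0.23 and 0.27, with a mean of 0.52 ± 0.35 (SD, n = 4) and 95% confidence limits of 1.14-fold and 1.81-fold around 1.44-fold (adjusted p = 0.0834 in limma).

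Fkbp4, its closest relative, fell by 1.11 ± 0.52 (SD, n = 4; adjusted p = 0.0292 in limma), with ratios of -0.74, -0.59, -1.61 and -1.51. The 2 immunophilins thus had ratios of opposite sign on each of the 4 arrays. The difference between them was not tested.

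Hsd11b1 encodes the enzyme that turns inactive 11-ketosteroid back into active hormone in liver, so that it sets the ligand inside the cell apart from that in blood. It was printed 10 times on each array, on chromosome 1 at 195048169 to 195048228 (mm9, minus strand). The mean intensities were 13853, 16059, 19205 and 19213 in fasted and 15920.5, 17759, 18084 and 18291 in re-fed livers. The fasted liver was lower on replicates 1 and 2 and higher on replicates 3 and 4, and the groups overlapped. Ratios were -0.20, -0.15, 0.09 and 0.07, with a mean of -0.05 ± 0.15 (SD, n = 4) and 95% confidence limits of -0.25 and 0.15 (adjusted p = 0.816 in limma).

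The 10 spots give the error within an array. Their SD was 0.10, 0.075, 0.099 and 0.16 on replicates 1 to 4, and single spots ran from -0.35 to -0.03 on replicate 1 and from -0.17 to 0.36 on replicate 4. The SD among arrays, 0.15, is of ratios that each average 10 spots. It therefore cannot be set directly against these SDs of single spots. Around this enzyme, 0 of the 10 kept genes of 11 that make, carry, break down or export steroids were called in either direction, and their median was 0.0063. The gene of the largest mean was H6pd, which supplies the enzyme with NADPH in the endoplasmic reticulum, with ratios of -0.24, 0.09, 0.84 and 1.44 and a mean of 0.53 ± 0.75 (SD, n = 4; adjusted p = 0.32 in limma). H6pd was thus high on the arrays with the fasted liver in Cy3 and near 0 on the others. Hsd11b2, the enzyme of the reverse step, was well above background in 1 of 4 fasted and 1 of 4 re-fed channels and was not kept.

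Among the other steroid receptors, Nr3c2, the mineralocorticoid receptor, which binds the same hormones, was well above background in 1 of 4 fasted and 2 of 4 re-fed channels and was not kept, nor was Pgr, the progesterone receptor. Of the 3 kept, 0 were called, and Esr2, an estrogen receptor, had the largest ratio, at 0.14 ± 0.15 (SD, n = 4; adjusted p = 0.404 in limma). The coregulators that the receptor recruits to DNA had a median of 0.09, with 1 of 17 called higher and 0 lower. The called one was Ppargc1a, the coactivator PGC-1α that joins the receptor and CREB at genes of glucose synthesis. It rose by 0.97, 1.33, 1.25 and 1.25 on the 4 arrays (adjusted p = 0.00338 in limma). A dimmer probe of Ppargc1a had a ratio of 0.45 (adjusted p = 0.0418) and missed the fold limit.

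Tsc22d3 encodes GILZ, a leucine zipper protein that is induced by glucocorticoids in most tissues and restrains inflammatory factors. It was probed on chromosome X at 137074094 to 137074153 (mm9, minus strand). Its intensities were 6631, 7999, 3322 and 3162 in fasted and 2608, 3743, 3589 and 3774 in re-fed livers. The fasted livers of replicates 1 and 2 stood above every re-fed liver, and those of replicates 3 and 4 lay within the re-fed range. The ratios of 1.35, 1.10, -0.11 and -0.26 gave a mean of 0.52 ± 0.82 (SD, n = 4) and an adjusted p of 0.374 in limma, and the 95% confidence limits ran from 0.883-fold to 2.33-fold. The mean was 1.22 on the arrays with the fasted liver in Cy5 and -0.18 on the others. With a dye term in the model the adjusted p of the same mean was 0.00718, still below 1.5-fold.

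Lcn2 encodes lipocalin 2, a siderophore-binding protein of the acute phase that liver cells and neutrophils make. It was probed on chromosome 2 at 32240199 to 32240258 (mm9, minus strand). Its intensities were 454, 574, 619 and 276 in fasted and 356, 286, 698 and 398 in re-fed livers, so both groups covered the same range. The ratios were 0.35, 1.004, -0.17 and -0.53, with a mean of 0.16 ± 0.67 (SD, n = 4), 95% confidence limits of -0.41 and 0.74, and an adjusted p of 0.768 in limma. Without replicate 2 the mean was -0.12, so the sign of the mean rested on that array. Of 10 neutrophil markers 4 were kept, with a median ratio of -0.05 and summed intensities of 789 to 943 in fasted and 765 to 959 in re-fed livers.

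Lcn2 can be set beside the other genes of the acute phase, of which 20 of 20 were kept. Of these, 1 was called higher, 1 was called lower, and the median was 0.17. The rise was that of Il6ra, the receptor through which IL-6 reaches hepatocytes, at 0.83 ± 0.51 (SD, n = 4; adjusted p = 0.0573 in limma), from ratios of 0.63, 1.59, 0.58 and 0.52. Il6ra was not called without replicate 2, when its mean of 0.58 missed the fold limit, nor without replicate 3 (0.91, adjusted p = 0.14) or replicate 4 (0.93, adjusted p = 0.109), nor with median centring (0.69, adjusted p = 0.134). Steap4, a metalloreductase, fell by 0.68 ± 0.24 (adjusted p = 0.0224), and without replicate 3 its mean of -0.56 missed the fold limit. Saa2 and Saa1, named after their values were seen, had larger means than Il6ra but were not called. They were at 1.28 ± 1.20 (SD, n = 4; adjusted p = 0.141 in limma) and 1.09 ± 0.97 (adjusted p = 0.126).

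**Figure D2:**
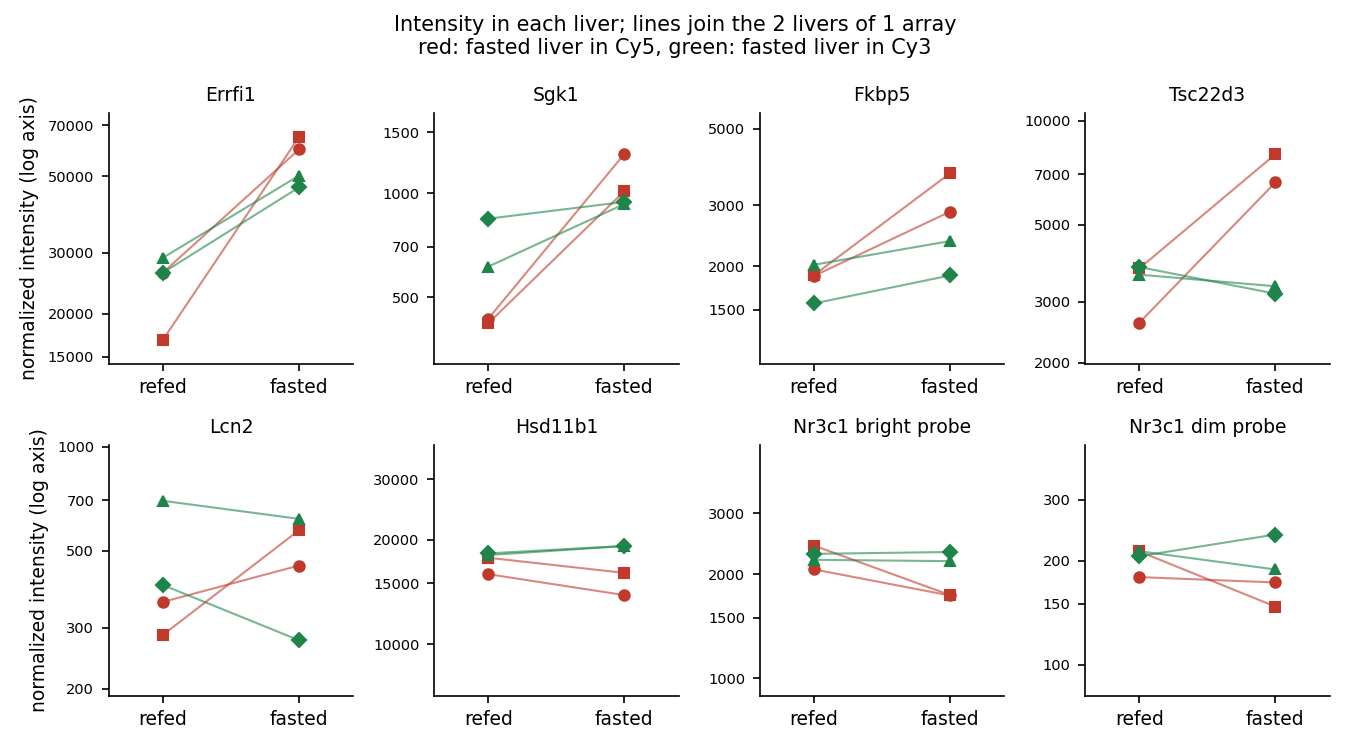
Normalized intensity of each probe (log axis, arbitrary units, spanning the same fold in every panel) in the re-fed and the fasted liver of each array, joined by a line (red, fasted liver in Cy5; green, fasted liver in Cy3). All 4 fasted livers lie above all 4 re-fed livers for Errfi1 and Sgk1, and the lines of Tsc22d3 and Lcn2 rise in red and fall in green.

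Sgk1 encodes a kinase of the AGC family that glucocorticoids induce within minutes to hours and that insulin activates through mTORC2 and PDK1. It was probed on chromosome 10 at 21719507 to 21719566 (mm9, plus strand). Its intensities were 1301, 1015, 931 and 945 in fasted and 435, 422, 614 and 845 in re-fed livers. Every fasted liver was above every re-fed one, and the groups came closest on replicate 4. The ratios were 1.58, 1.27, 0.60 and 0.16, so that Sgk1 rose by a mean of 0.90 ± 0.64 (SD, n = 4; limma SE 0.23), or 1.87-fold with 95% confidence limits of 1.27 and 2.75 (adjusted p = 0.0782 in limma). Sgk1 and Errfi1 were the 2 of 8 probes whose groups did not overlap in this direction, which 5.81% of all kept probes showed. The call did not hold without replicate 1 (0.68, adjusted p = 0.151), replicate 2 (0.78, adjusted p = 0.224) or replicate 3 (1.003, adjusted p = 0.171), and it held without replicate 4 (1.15, adjusted p = 0.0613). It was also lost with no filter on dim probes (adjusted p = 0.126) and with the background fitted on all spots, 55 spots of high local background included (0.74, adjusted p = 0.559).

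RefSeq lists 6 transcript starts of Sgk1, each with a window of 250 bases before and 50 after it (GRCm38.p6, while the probe positions are mm9; nothing was converted). The receptor's palindrome, searched as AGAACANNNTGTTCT, which reads the same on both strands, was found without mismatch in 3 of 32851 promoter windows of the mouse (0.00913%), and 1 of these was the fifth window of Sgk1 by position along the chromosome; the others belonged to Acnat2 and Gm35041. Acnat2 was lower in fasted liver, with a mean ratio of -1.04 (adjusted p = 0.00277 in limma). In the Sgk1 window the palindrome spans positions -189 to -175, where -1 is the base before the start. That window, chr10:21993640-21993939 on the plus strand, is shown because it holds this palindrome, in capitals, and a lone half-site TGTTCT further upstream, also in capitals.

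Sgk1 window 5: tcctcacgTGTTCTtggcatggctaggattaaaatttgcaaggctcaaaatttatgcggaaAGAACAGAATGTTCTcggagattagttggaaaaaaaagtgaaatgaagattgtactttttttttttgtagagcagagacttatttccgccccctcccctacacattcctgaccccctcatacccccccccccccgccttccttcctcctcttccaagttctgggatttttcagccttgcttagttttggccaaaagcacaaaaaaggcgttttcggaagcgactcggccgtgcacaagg

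The third window of Sgk1 holds the palindrome at positions -183 to -169 with up to 2 mismatches, which 1.84% of all windows do, against 0.164% with up to 1. The half-site AGAACA, on either strand and also counted inside the palindrome, occurred in 4 of the 14 windows of the members and in 19.0% of all windows. Which of the 6 starts was in use in these livers cannot be told from the single Sgk1 probe. A match of letters is a description of the window and shows no binding.

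Of 11 genes around SGK1 (its relatives, the mTORC2 subunits that activate it and its substrates), 10 were kept and 0 were called, with a median of 0.19. The ratios farthest from 0 were those of a pair of mTORC2 subunits that missed the fold limit, Rictor at 0.55 ± 0.13 (SD, n = 4; adjusted p = 0.0195 in limma) and Mlst8, named after its value was seen, in the other direction at -0.51 ± 0.06 (adjusted p = 0.0163). Rictor was called higher in 5 of 18 alternatives, at 0.77 with Agilent's processed signals. Among 14271 other kept genes, those whose 4 ratios lay nearest to those of Sgk1 (Euclidean distance over 4 arrays) were Cyp2b10, a drug-metabolizing cytochrome P450, at 0.311, then Crybg1 at 0.403 and Slc15a4, a lysosomal peptide and histidine transporter, at 0.414. Cyp2b10 had ratios of 1.83, 1.14, 0.65 and 0.28. It was chosen by these same ratios, so the order of arrays that it shares with Sgk1 is no separate result.

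Errfi1 encodes MIG6, a scaffold that binds the EGF receptor and its relatives and blocks their kinase, and it is induced by glucocorticoids as well as by growth factors. Its rise was the largest of the 7 genes. Its intensities were 59672, 64784, 50103 and 46348 in fasted and 26293, 16814.5, 29039 and 26288 in re-fed livers. The lowest fasted liver was well above the highest re-fed one, and the widest gap was on replicate 2. The probe lies on chromosome 4 at 150242886 to 150242945 (mm9, plus strand). With ratios of 1.18, 1.95, 0.79 and 0.82, Errfi1 rose by a mean of 1.18 ± 0.54 (SD, n = 4; limma SE 0.20), or 2.27-fold with 95% confidence limits of 1.63 and 3.16 (adjusted p = 0.0269 in limma). The call held when any 1 array was left out, with means of 0.93 without replicate 2 to 1.32 without replicate 3 (adjusted p = 0.0716). It was lost with the background fitted on all spots (1.27, adjusted p = 0.335).

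Of the 2 RefSeq starts of Errfi1, neither window holds the receptor's palindrome or its half-site. The second, chr4:150854820-150855119 on the plus strand (GRCm38.p6), is shown because it holds a full cAMP response element, TGACGTCA, the site of CREB, at positions -51 to -44, in capitals. This element, which reads the same on both strands, occurred in 1.79% of all windows, and its half-site TGACG, on either strand and also counted inside the full element, in 20.8% of all windows and in 3 of the 14 windows of the members.

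Errfi1 window 2: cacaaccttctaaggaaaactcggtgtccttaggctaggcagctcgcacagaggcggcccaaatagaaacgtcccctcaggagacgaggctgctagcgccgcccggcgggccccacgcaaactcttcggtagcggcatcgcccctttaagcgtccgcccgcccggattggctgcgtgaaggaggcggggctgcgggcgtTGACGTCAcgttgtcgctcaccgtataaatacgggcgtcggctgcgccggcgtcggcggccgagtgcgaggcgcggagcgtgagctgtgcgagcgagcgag

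**Figure D3:**
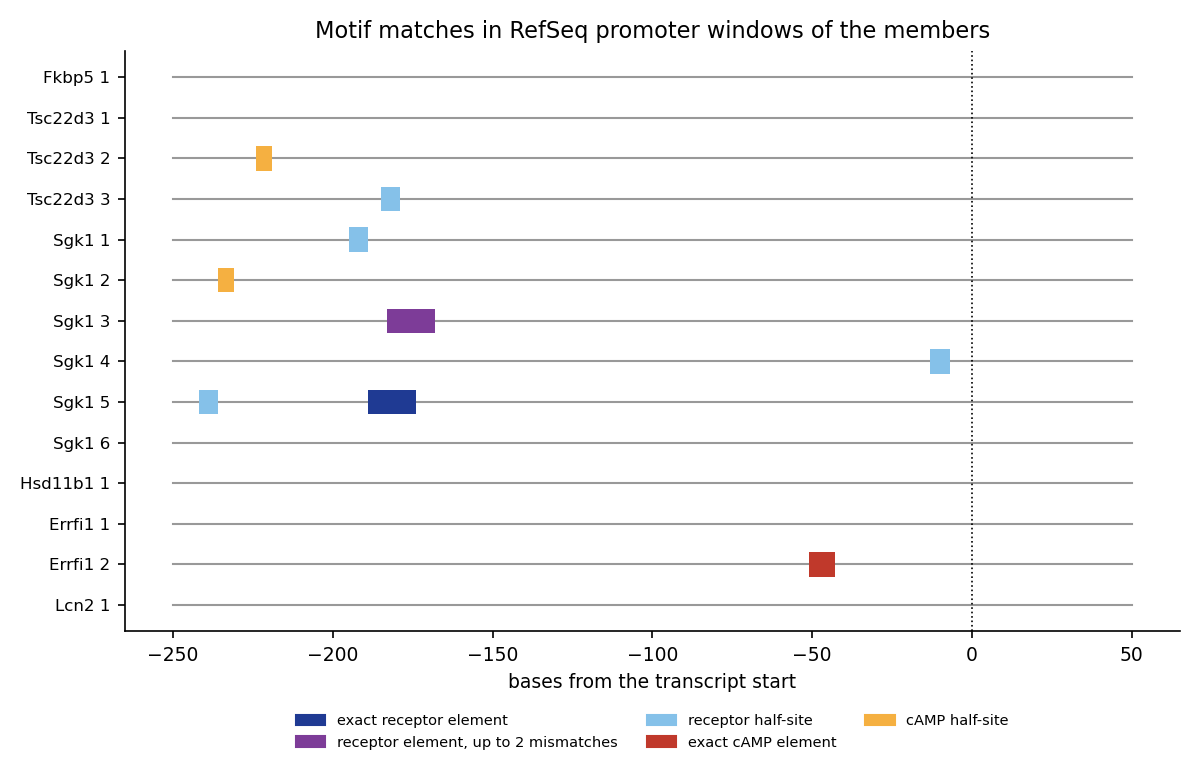
Matches to the receptor element, its half-site, the cAMP response element and its half-site in the 14 RefSeq promoter windows of 6 of the members, along the distance in bases from the transcript start. The exact receptor element stands in window 5 of Sgk1 at -189 and the exact cAMP response element in window 2 of Errfi1 at -51, and 6 windows hold no match.

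The partners of MIG6 did not pass the test. Of 15 genes for EGF receptors, their ligands and their feedback inhibitors, 9 were kept and 0 were called, with a median of 0.05. Egfr itself had the largest mean, 0.47 ± 1.30 (SD, n = 4; adjusted p = 0.623 in limma), from ratios of 1.81, -0.52, -0.76 and 1.36. Its sign changed within both dye orientations, so no direction can be given for Egfr. The genes whose ratios lay nearest to those of Errfi1 were Cebpd at a distance of 0.333, Gm9629 at 0.407 and AA414992 at 0.531. Cebpd, the transcription factor C/EBPδ, had ratios of 1.32, 2.14, 0.93 and 1.001. Its nearness to Errfi1 was the ground for choosing it, so their shared peak on replicate 2 is no separate result.

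Genes known to be induced by glucocorticoids outside these 7 were looked at in 2 lists, 1 of genes induced in many tissues and 1 of genes of liver metabolism. Both lists were written with earlier results of these data known. Of the first, 24 of 26 were kept, with a median of 0.20, and 8 were called higher and 1 lower, against 1.93% and 2.19% of all kept genes. The metal-binding metallothioneins led it: Mt2 rose by 3.27 ± 1.20 (SD, n = 4; adjusted p = 0.0143 in limma) and Mt1 by 2.38 ± 1.46 (adjusted p = 0.0488). Zbtb16, a zinc finger repressor, rose by 1.91, and Klf9, a Krüppel-like factor, by 0.96. Cdkn1a, the cell cycle inhibitor p21, rose by 1.53 and Cebpd by 1.35. The phosphatase Dusp1, which switches off MAP kinases, rose by 1.504, and Nfkbia, the inhibitor of NF-κB, by 0.73.

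The gene that fell was Tgm2, transglutaminase 2, by 0.62 ± 0.18 (SD, n = 4; adjusted p = 0.0198 in limma). A dimmer probe of Klf9 was at 0.13 and not called. Some textbook targets did not pass. Chosen after their values were seen, Per1 had a ratio of 0.40 ± 0.67 (SD, n = 4) and Klf15 had 1.05, 1.18, -0.24 and -0.34, which turned with the dye as those of Tsc22d3 did. So did those of Bcl6 (1.31, 1.72, -1.14 and -1.82) and Ddit4 (2.90, 1.33, -0.67 and -0.69), also chosen after their values were seen. Without replicate 3 the list had 3 genes called higher, and Dusp1, Zbtb16, Klf9, Nfkbia, Mt1 and Tgm2 were not called. Mt1 was also lost without replicate 1 or 2, and Klf9 without replicate 2 or 4 and with median centring (adjusted p = 0.111).

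In the list of liver metabolism 19 of 20 were kept, with a median of 0.84. Of these, 10 were called higher and 0 lower, against 1.93% and 2.19% of all kept genes. Igfbp1, which binds insulin-like growth factors, rose by 5.55 ± 1.18 (SD, n = 4) and G6pc, the last enzyme of glucose synthesis, by 3.60 ± 0.37. Pck1, the enzyme at its first committed step, rose by 2.66, and the aminotransferases Got1 and Tat by 1.58 and 0.84. Angptl4, an inhibitor of lipoprotein lipase, rose by 2.95 and Lpin1, a phosphatidate phosphatase, by 2.67. Pdk4, which closes the pyruvate dehydrogenase gate, rose by 1.49, Irs2, an adaptor of the insulin receptor, by 1.35, and the hormone Fgf21 by 1.11. Adjusted p of these 10 ran from 0.0017 for G6pc to 0.0837 for Pdk4 in limma. Several of them are also known targets of cAMP, insulin or fatty acid signalling, and the part of the glucocorticoid receptor in their rise was not tested. Without replicate 2 and without replicate 3 the list had 6 genes called higher each time, with Tat, Got1, Pdk4 and Fgf21 lost. Tat was also lost without replicate 1, with Agilent's processed signals (adjusted p = 0.104) and with median centring (0.112), and Pdk4 without replicate 4 and with no filter on dim probes (0.141). With the background fitted on all spots 2 of the list were called higher and the median was 0.50.

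Inflammatory genes that the receptor is known to hold down made up a list of 13, of which 9 were kept. Il6, Tnf and Ptgs2 were well above background in no channel and were not kept. Of the 9, 0 were called higher and 2 lower, with a median of -0.16. Cxcl10, an interferon-induced chemokine, fell by 1.03 ± 0.76 (SD, n = 4; adjusted p = 0.0821 in limma), from ratios of 0.06, -1.09, -1.56 and -1.55, so that replicate 1 showed no lower signal in fasted liver. Its call was lost without replicate 2 (adjusted p = 0.213), 3 (0.254) or 4 (0.24) and with no filter on dim probes (0.135). Irf1, an interferon regulatory factor, fell by 0.72 ± 0.18 (SD, n = 4; adjusted p = 0.0143) and was called whichever array was left out. Over all 10 lists 20 genes were called higher and 13 lower, while 1.93% and 2.19% of all kept genes were. With the background fitted on all spots the lists had 2 and 0.

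**Figure D4:**
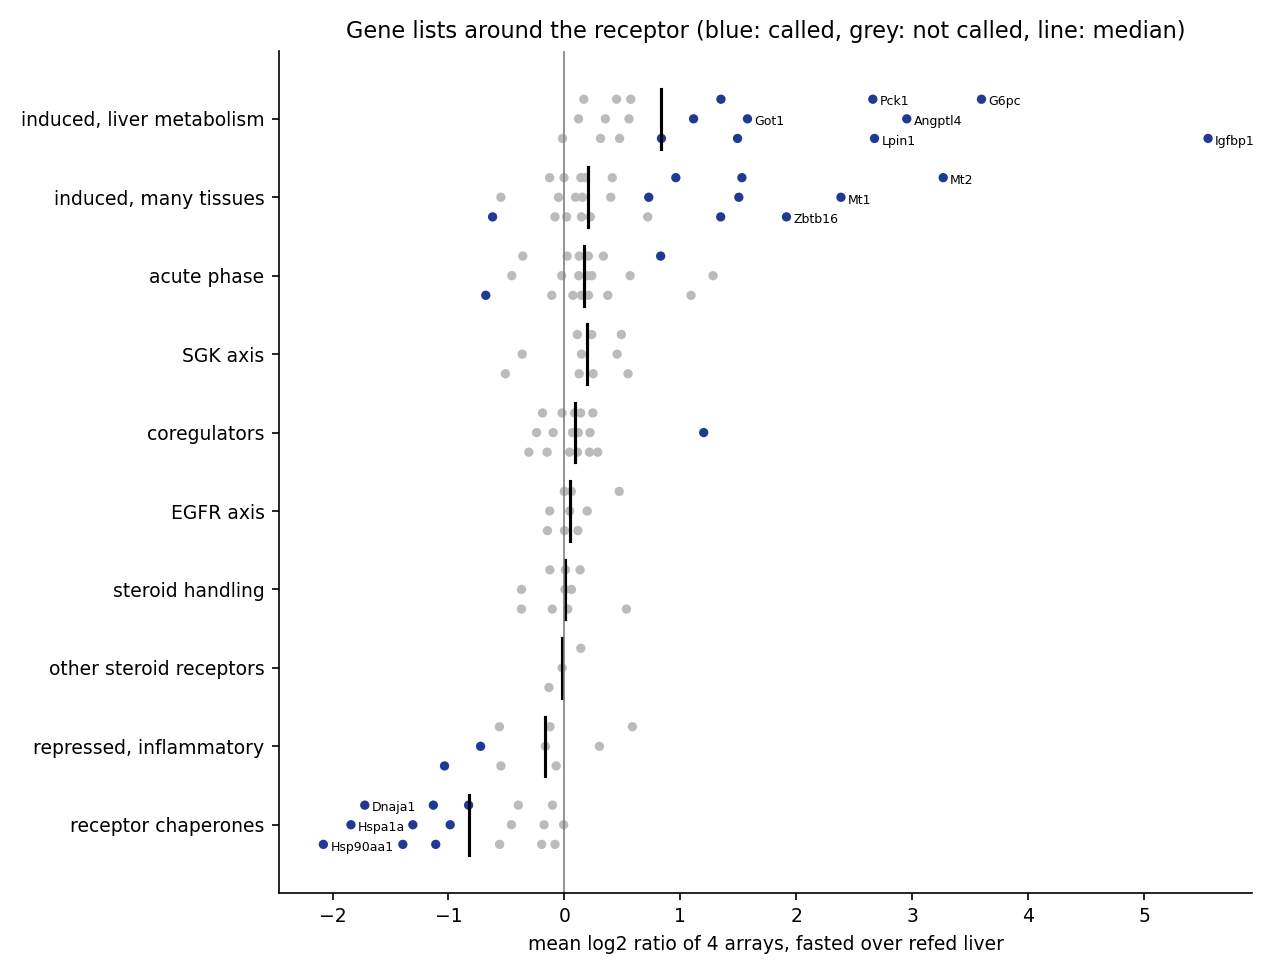
Mean ratio of each kept gene (log2, fasted over re-fed liver, n = 4 arrays) in the 10 lists around the receptor, with called genes in blue, others in grey and a black line at each list's median; the called genes farthest from 0 are named. The chaperones lie below 0 with a median of -0.83, the genes of liver metabolism from -0.016 upward with a median of 0.84, and the other lists have medians from -0.16 to 0.20.

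The dye swap allows each probe's ratio of Cy5 over Cy3 to be estimated beside its ratio of fasted over re-fed liver. A dye term past an adjusted p of 0.10 in limma was found for 4 of the 8 probes, those of Tsc22d3 (0.70, adjusted p = 0.00923), Sgk1 (0.52, adjusted p = 0.0458), Lcn2 (0.51, adjusted p = 0.0644) and Fkbp5 (0.27, adjusted p = 0.0895). Over all kept probes it was found for 14.8%. All 4 were toward Cy5, and with median centring in place of loess 1 of the 8 was past the limit. For Errfi1 the term was 0.38 (adjusted p = 0.121), and for both Nr3c1 probes and Hsd11b1 it lay between -0.18 and -0.13. Called genes of the lists also had dye terms past this limit. Among them were Hsp90aa1 (0.51, adjusted p = 0.0608), Hspa8 (0.57, 0.0388), Igfbp1 (1.01, 0.00326) and Pdk4 (-0.93, 0.0332). Other called genes were not past it, such as Stip1 (0.023, adjusted p = 0.824) and G6pc (0.26, 0.14).

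With the fasted liver in Cy5 and in Cy3 the mean ratio of Errfi1 was 1.56 and 0.80, that of Sgk1 was 1.42 and 0.38, and that of Fkbp5 was 0.80 and 0.25. These genes thus kept the sign in both orientations and had the larger ratio with the fasted liver in Cy5. Lcn2 was at 0.68 and -0.35. Each orientation held 2 pairs of livers, so a dye effect and a difference between these pairs of mice cannot be told apart. With the dye term in the fit the adjusted p was 0.00383 for Errfi1, 0.00396 for Sgk1 and 0.00928 for Fkbp5, and the same 2 probes were called.

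**Figure D5:**
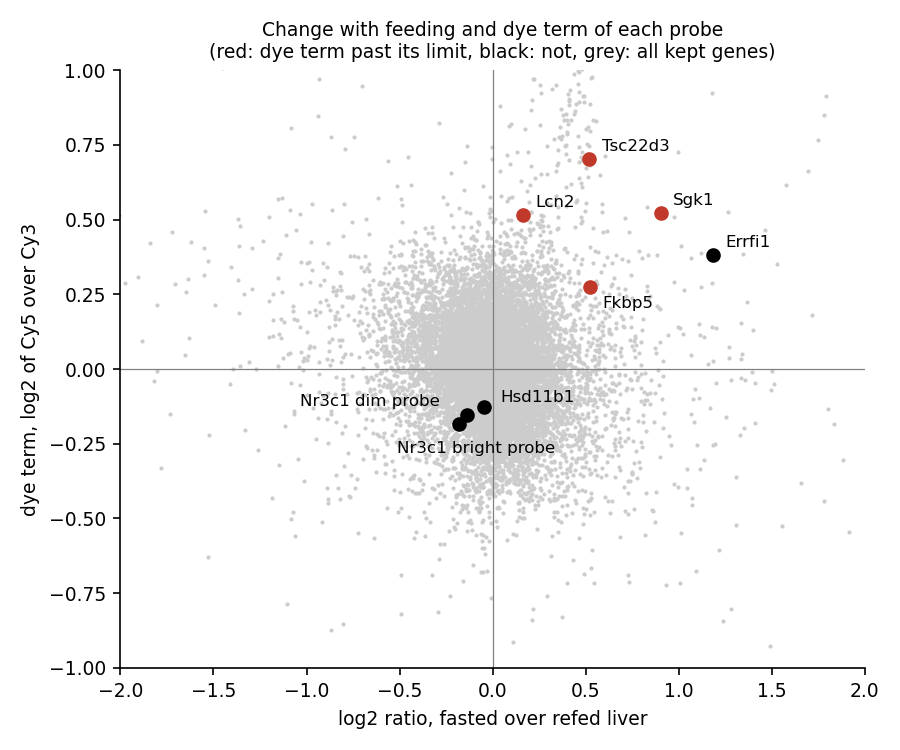
Ratio of fasted over re-fed liver (log2, horizontal axis) and dye term (log2 of Cy5 over Cy3, vertical axis) of the 8 probes, over all 14272 kept genes in grey, of which 53 lie outside the axes. Tsc22d3, Sgk1, Lcn2 and Fkbp5, in red, are past the limit for the dye term, at 0.27 to 0.70, and Errfi1, farthest to the right at 1.18, is not.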

How the data were processed

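Total RNA of individual livers (200 ng each, 4 fasted and 4 re-fed) was labelled with Cy3 or Cy5 and hybridized by the authors to 4 whole mouse genome arrays in a dye swap. The deposited scanner files hold the raw intensity of each spot as medians, with local backgrounds and flags, from Feature Extraction 10.10.1.1 per the file headers. The authors also deposited log2 ratios normalized by loess in limma, which were used as an alternative; their medians per array were -0.117 to 0.057, their background step is not given in the sources used here, and their rows were matched by spot order (r of 0.975 to 0.992 with the ratios used here).

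Spots with a local background over 3 times the array's median were left out (55 of 177588), as were control spots and 197 to 322 flagged spots per array. Background was corrected by normexp with an offset of 50 in limma 3.58.1 (R 4.3.3), ratios were normalized by loess within arrays, and intensities are after quantile normalization of the average signal between arrays; they order livers for 1 probe and do not compare probes. Spots of a probe were averaged. Probes well above background on all 4 arrays in at least 1 condition, with a value on all 4, were kept. The ratios were tested with lmFit and eBayes on both sides, and p was adjusted after Benjamini and Hochberg across the 19721 probes. SDs are over the 4 arrays, confidence limits are from limma, and the number of arrays limits the precision. The arrays lay on 1 slide in 1 scan. The methods name SAM, which was rebuilt over all 16 sign flips as an alternative. The scripts were tested on simulated data.

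The members, the gene lists and the alternatives were chosen with earlier results of these data known. Named were all probes of the members, of each list the called genes or else the one of largest mean, the 3 nearest genes of each called member, and Nr3c2 and Fkbp4; list genes were taken by their brightest kept probe, and for genes with several kept probes the others were looked at for disagreement. Named outside this rule were Hsd11b2, Pgr, Il6, Tnf and Ptgs2, which were not kept, and the other genes with the exact palindrome. Genes marked as named or chosen after their values were seen were also outside it. Of 39429 probes, 26055 were named by accession and 4125 by symbol through RefSeq. Promoter windows are from RefSeq, GRCm38.p6, matched by symbol for 6 of the 7 members.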

Additional observations from a re-analysis of the deposited data

Results flagged for a closer look

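Among the 8 probes of the members no array stood apart from the other 3. In the lists around them, 62 values were looked at for an array whose gap to its nearest neighbour, divided by the range of the 4 arrays, was above the 95% critical value of Dixon for 4 values, and 5 were found. Chance alone flags about 1 in 20. Tgm2 was at -0.34 on replicate 1 and at -0.71 to -0.72 on the others, a share of 0.970. Pck1 was at 3.72 on replicate 2 and at 2.27 to 2.35 on the others (0.946). Rictor was at 0.74 on replicate 4 and at 0.47 to 0.50 on the others (0.898). Il6ra was at 1.59 on replicate 2 and at 0.52 to 0.63 on the others (0.893), and it was not called without replicate 2. The median of the pancreatic acinar markers was -3.79 on replicate 3 and -0.05 to 0.04 on the others (0.976).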

How the results depend on the processing

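The counts of members called, 2 higher and 0 lower, held under plain subtraction, no background correction, a background limit of 5 times the median, Agilent's processed signals, the authors' ratios, median centring, a filter on both channels, flagged spots kept, a dye term, separate channels without the array as a replicate block, and rebuilt SAM. The higher count was 0 with normexp on all spots and 1 with no filter on dim probes, where Sgk1 was lost at an adjusted p of 0.126 with more probes adjusted for; leaving out 1 array gave 1 to 2, with Sgk1 lost without replicate 1, 2 or 3. Errfi1 was called in 17 of 18 alternatives, the exception being normexp on all spots (adjusted p = 0.335), and Sgk1 in 13. With normexp on all spots the lists had 2 genes higher and 0 lower in place of 20 and 13, 5 and 15 of all kept probes were called in place of 335 and 410, and the members' dye term was past its limit for 2 probes; the cause was not tested. With median centring the dye count was 1, and of all calls 26.6% were higher (230 and 635 probes) in place of 45.0%. Without a fold limit 21 list genes were lower, and 935 and 1208 probes were called. Higher counts grew too, in the list of liver metabolism to 13 in place of 10. Plain subtraction called 550 and 714 probes and Agilent's signals 685 and 904. Leaving out 1 array gave 10 to 19 list genes higher (10 without replicate 3, 13 without replicate 2), 7 to 16 lower (7 without replicate 3), and 208 and 257 probes without replicate 3. The sign turned for Hsd11b1 without replicate 1 and for Lcn2 without replicate 2, neither called, and with 1 array left out their means ran from -0.092 to 0.0042 and from -0.12 to 0.39.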
